A study of Rattus norvegicus with 4 samples.

Results

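Muscle excitation and calcium handling genes were followed in liver RNA of obese and lean WNIN/Ob rats, as 45 genes that carry the electrical signal of a muscle fibre to its calcium store and return the calcium afterwards. Of the 45 genes, 43 were measured among 14506 named genes, each through a probe set whose only platform symbol is that gene. The members were chosen by name, in a list written with the levels of these arrays in view, and the probe set with the highest mean level stood for a gene with several. The differences between the pools below are therefore a description of the members and carry no test. The voltage sensor subunit gene Cacna1s and the calcium store gene Casq1 had no such probe set and were not analysed here.

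The obese group was a pool of liver RNA from 4 male rats of the WNIN/Ob strain with the obese phenotype, and the lean group a pool from 4 male rats of the same strain with the lean phenotype. The strain descends from Wistar rats and yields both obese and lean animals. All animals were 4 months old, ate stock diet freely and received no treatment. Each pool was labelled and hybridised to 2 Affymetrix Rat Gene ST arrays, an original and a technical replicate, so the 2 arrays of a pool share their RNA and nothing measures the spread between animals.

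In skeletal muscle, an action potential starts at the neuromuscular junction, where acetylcholine opens a receptor channel, and runs along the surface membrane into the transverse tubules. There a voltage sensor, a modified calcium channel, touches the ryanodine receptor of the sarcoplasmic reticulum (SR) and opens it, and calcium leaves the SR for the contractile filaments. Calcium pumps of the SERCA family then return it to the SR, where calsequestrin holds it. Hepatocytes use a different set of calcium proteins, with inositol trisphosphate receptors as the main release channels.

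Levels are log2 intensities as the mean of a pool's 2 arrays, and differences are obese minus lean, so that -1 is a factor of 2. The range after a difference covers the 4 pairs of an obese and a lean array and is measurement error only. A gene counted as 2-fold lower or higher under 3 conditions: a factor of 2 or more between the pools, a gap of 0.5 or more between their closest arrays, and a level in the higher pool of at least 5.48, the median of all genes (the level filter). The 1.5-fold rule asked for a factor of 1.5, a gap of 0.25 and the same level.

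By the 2-fold rule 18 of the 43 measured members were lower in the obese pool and 0 were higher, whereas 1.48% of all genes were lower and 0.572% higher. By the 1.5-fold rule 21 members were lower, beside 2.43% of all genes. In 37 of the 43 both obese arrays lay below both lean arrays, as they did for 18.5% of all genes. Since the list was made with these values in view, nothing is read from these shares. The median difference was -1.03 over the measured members and 0.03 over all genes. The obese pool had the lower mean level in 41 members, and Ryr2 and Calm3 were the exceptions. Of the 43 measured members among 14506 genes, 12 were among the 100 largest decreases. The 7 members at the neuromuscular junction stood below the level filter in both pools, so neither rule could call them. In RNA from whole tissue, fewer cells of a type, less RNA per cell and a differing amount of other tissue in the sample cannot be told apart. Nor does a pool show how many of its 4 animals shared a difference.

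**Figure D1:**
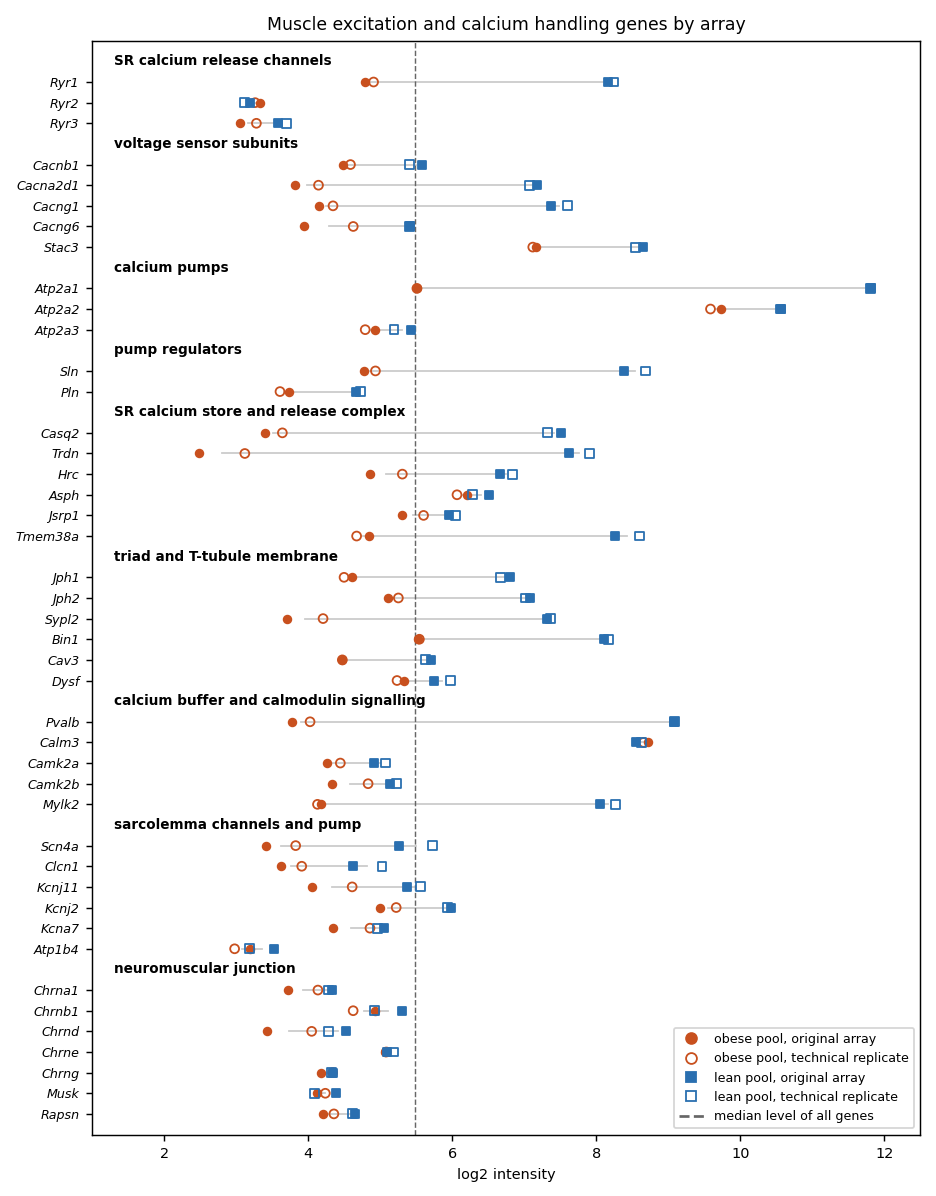
Level of each measured member on every array, in log2 intensity, with the members grouped by role. Orange circles are the obese pool and blue squares the lean pool; filled symbols are original arrays and open symbols technical replicates, the grey line joins the pool means, and the dashed line is the median level of all genes (5.48). Atp2a1 shows the widest gap, 5.51 against 11.81, and the neuromuscular junction genes lie together below the dashed line in both pools.

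The tissue label and the cell types that could carry these genes were checked first. The 8 hepatocyte markers stood between 10.87 and 13.74 in the obese pool and between 10.76 and 13.67 in the lean pool, and none passed either rule. All 19 measured markers of skeletal muscle filaments and metabolism were 2-fold lower in the obese pool, beside 1.48% of all genes. Among the 19 were Acta1 and slow-fibre genes that the heart shares, such as Myh7. Their median difference was -5.56. In 17 of the 19 the obese level lay under the level filter, so the size of that median is not firm. The summed linear intensities of the 19 were 539 and 562 on the obese arrays, against 29759 and 31298 on the lean arrays. Heart muscle markers summed to 113 and 128 on the obese arrays, against 148 and 145 on the lean arrays, and 0 of 6 were 2-fold apart. Nppa, Nppb, Myl7, Tnni3 and Tnnt2, which encode the natriuretic peptides and heart forms of a myosin light chain and of troponin, stood below the level filter in both pools. Myh6, a heart myosin, had a difference of -0.93 and passed the 1.5-fold rule. Smooth muscle markers (511 and 568 on the obese arrays, against 583 and 585 on the lean arrays, 0 of 7 past the 2-fold rule) included Myh11, the smooth muscle myosin, which passed the 1.5-fold rule with a difference of -0.67 (-0.94 to -0.39). Markers of neurons and Schwann cells summed to 109 and 122 on the obese arrays, against 111 and 105 on the lean arrays. All 8 measured stood below the level filter in both pools, so neither rule could call them. Of the 5 adipocyte markers, Adipoq, Plin1 and Lep had differences of -0.36, -0.29 and -0.43. These 3 stood below the level filter in both pools, so neither rule could call them. Cidec, at 0.53 (0.46 to 0.60), and Cfd, at 0.10 (-0.13 to 0.32), reached the filter and passed neither rule. Skeletal muscle markers moved with the members, and their part in the members' differences was not tested.

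Promoter windows of a few members are shown here as a description, and a part of these sequences in the differences was not tested. RefSeq windows of build GRCr8, from 250 bases before to 50 after a start site, matched 33 of the 43 measured members and 27457 genes in all. Short sequences known from muscle promoters were searched on both strands: the E-box CAGCTG, a preferred site of the myogenic MyoD family that reads alike on both strands, CATTCC, bound by TEAD factors, and the MEF2 box. Windows are printed 5′ to 3′ on the strand of the gene, with matches in capitals. They show the pump with the greatest difference, an adaptor with a pair of E-boxes, the caveolin with all 3 sequences, and a receptor subunit that passed neither rule.
Atp2a1: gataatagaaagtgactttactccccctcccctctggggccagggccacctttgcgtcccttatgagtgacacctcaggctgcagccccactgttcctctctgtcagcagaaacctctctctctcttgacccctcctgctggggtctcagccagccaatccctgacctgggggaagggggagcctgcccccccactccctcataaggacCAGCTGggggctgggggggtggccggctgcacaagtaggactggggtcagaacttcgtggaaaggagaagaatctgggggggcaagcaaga
Stac3: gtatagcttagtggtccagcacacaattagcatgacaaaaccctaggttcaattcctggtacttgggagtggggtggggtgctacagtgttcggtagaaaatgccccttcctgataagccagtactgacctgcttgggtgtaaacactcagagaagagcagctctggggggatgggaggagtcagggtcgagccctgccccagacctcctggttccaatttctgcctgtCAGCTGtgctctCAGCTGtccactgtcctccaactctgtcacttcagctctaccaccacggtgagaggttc
Cav3: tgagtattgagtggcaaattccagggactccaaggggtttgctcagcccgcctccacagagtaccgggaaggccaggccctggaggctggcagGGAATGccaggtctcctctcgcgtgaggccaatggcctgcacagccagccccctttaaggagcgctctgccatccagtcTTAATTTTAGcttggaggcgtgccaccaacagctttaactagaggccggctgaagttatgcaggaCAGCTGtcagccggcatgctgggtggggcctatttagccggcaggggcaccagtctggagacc
Chrng: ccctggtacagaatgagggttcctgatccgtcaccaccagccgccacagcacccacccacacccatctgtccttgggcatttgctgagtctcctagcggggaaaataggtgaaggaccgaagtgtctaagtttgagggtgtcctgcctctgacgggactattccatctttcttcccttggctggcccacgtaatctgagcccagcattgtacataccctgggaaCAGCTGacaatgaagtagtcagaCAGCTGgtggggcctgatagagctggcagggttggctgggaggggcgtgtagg

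The Atp2a1 window (chr1:190475361-190475660, minus strand) holds 1 CAGCTG that begins 41 bases before the start site. The Stac3 window (chr7:65228225-65228524, plus strand) holds CAGCTG 21 and 9 bases before the start. In the Cav3 window (chr4:147137743-147138042, plus strand) CATTCC, read on the opposite strand, lies 157 bases, a MEF2 box 78 bases and CAGCTG 13 bases before the start. The Chrng window (chr9:95325734-95326033, plus strand) holds CAGCTG 26 and 3 bases before the start, and the gene's levels overlapped between the pools. The listed matches do not overlap each other.

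CAGCTG stood in the windows of 12 of the 33 members (36.4%) and of 16.2% of all genes with a window. Of the members past the 2-fold rule 4 of 14 held it, namely Atp2a1, Stac3, Cav3 and Scn4a, and of the others 8 of 19. Among the neuromuscular junction genes, which stood below the level filter in both pools and so could pass neither rule, 5 of 6 held CAGCTG. The general E-box CANNTG, which takes in CAGCTG, was in 25 of 33 windows (75.8%), against 73.2% of all genes. The MEF2 box was found in the windows of Casq2, Cav3 and Clcn1, 3 of 33, beside 3.66% of all genes. CATTCC stood in 5 of 33 windows (15.2%), against 15% of all genes. These matches describe the letters in the windows and not binding.

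Of the 3 calcium release channels, 1 passed the 2-fold rule. Ryr1, the ryanodine receptor of skeletal muscle, stood at 4.79 and 4.91 on the obese arrays, against 8.16 and 8.24 on the lean arrays. The pools lay far apart, and the difference was -3.35 (-3.45 to -3.25). Ryr2, the release channel of the heart, stood at 3.33 and 3.26 on the obese arrays and 3.18 and 3.11 on the lean arrays, with a difference of 0.15 (0.08 to 0.22) at levels below the filter in both pools. Ryr3, a widely expressed form at low abundance, was also below the filter in both, at 3.05 and 3.28 on the obese arrays, against 3.58 and 3.70 on the lean arrays. Its difference was -0.47 (-0.65 to -0.30). With these levels so low, the sizes of the 3 differences were not set against each other.

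The voltage sensor subunits were lower in the obese pool, and 3 of the 5 measured passed the 2-fold rule. Cacng1, the gamma subunit of the skeletal calcium channel, stood at 4.15 and 4.34 on the obese arrays, against 7.37 and 7.60 on the lean arrays, a difference of -3.24. Cacna2d1, the alpha-2/delta subunit, stood at 3.82 and 4.14 on the obese arrays, against 7.17 and 7.07 on the lean arrays, a difference of -3.14. Neither gene had an obese array near a lean one. Stac3, an adaptor that the voltage sensor needs to open the ryanodine receptor, stood at 7.17 and 7.12 on the obese arrays, against 8.65 and 8.54 on the lean arrays. The pools differed 2.73-fold (2.59 to 2.89), with the obese pool lower and both above the filter. Its window above holds CAGCTG 2 times. Cacnb1, the beta subunit, had a difference of -0.96 (-1.10 to -0.82) and Cacng6, a related gamma subunit, one of -1.13 (-1.47 to -0.78).

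Both of those lay just outside the 2-fold rule. Cacnb1 reached the level filter in the lean pool, at 5.50, but not the factor of 2, whereas Cacng6 reached the factor but stood at 5.41 in the lean pool. Kcnj11, at 5.46 in the lean pool, was also just outside, and Scn4a, at 5.49, was just inside. Without the level filter Cacng6, Kcnj11, Clcn1 and Pln would also count, which makes 22 members.

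The calcium pumps held the member with the greatest difference. Atp2a1, the SERCA pump of fast skeletal fibres, stood at 5.50 and 5.51 on the obese arrays, against 11.82 and 11.81 on the lean arrays. The arrays of each pool were almost equal, and only 5 of the 14506 genes had a larger decrease. The obese pool just reached the level filter, and the fold was 79.1 (78.7 to 79.5) downwards, a range that covers technical arrays only. With an offset of 16 added to the intensities, the difference of -6.31 became -5.88, so the size is not firm. The Atp2a1 window above holds 1 CAGCTG. Atp2a2, the pump of slow fibres, heart and most other tissues including liver, stood at 9.73 and 9.59 on the obese arrays, against 10.56 on both lean arrays. The obese pool was lower by a factor of 1.87 (1.78 to 1.97), past the 1.5-fold rule only. The difference of Atp2a1 minus that of Atp2a2 was -5.40 (-5.48 to -5.32). Atp2a3, the pump of blood and epithelial cells, had a difference of -0.45 (-0.63 to -0.27) at levels below the filter in both pools.

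Of the small membrane peptides that restrain these pumps, 1 of 2 passed the 2-fold rule. Sln (sarcolipin), the inhibitor found in skeletal muscle and atria, stood at 4.78 and 4.93 on the obese arrays, against 8.38 and 8.69 on the lean arrays, and its difference was -3.68 (-3.91 to -3.45). Pln (phospholamban), the inhibitor of heart, slow fibres and smooth muscle, stood at 3.73 and 3.61 on the obese arrays, against 4.67 and 4.72 on the lean arrays. Its difference of -1.03 (-1.11 to -0.94) came from levels below the filter in both pools, so its size is not set against that of Sln.

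**Figure D2:**
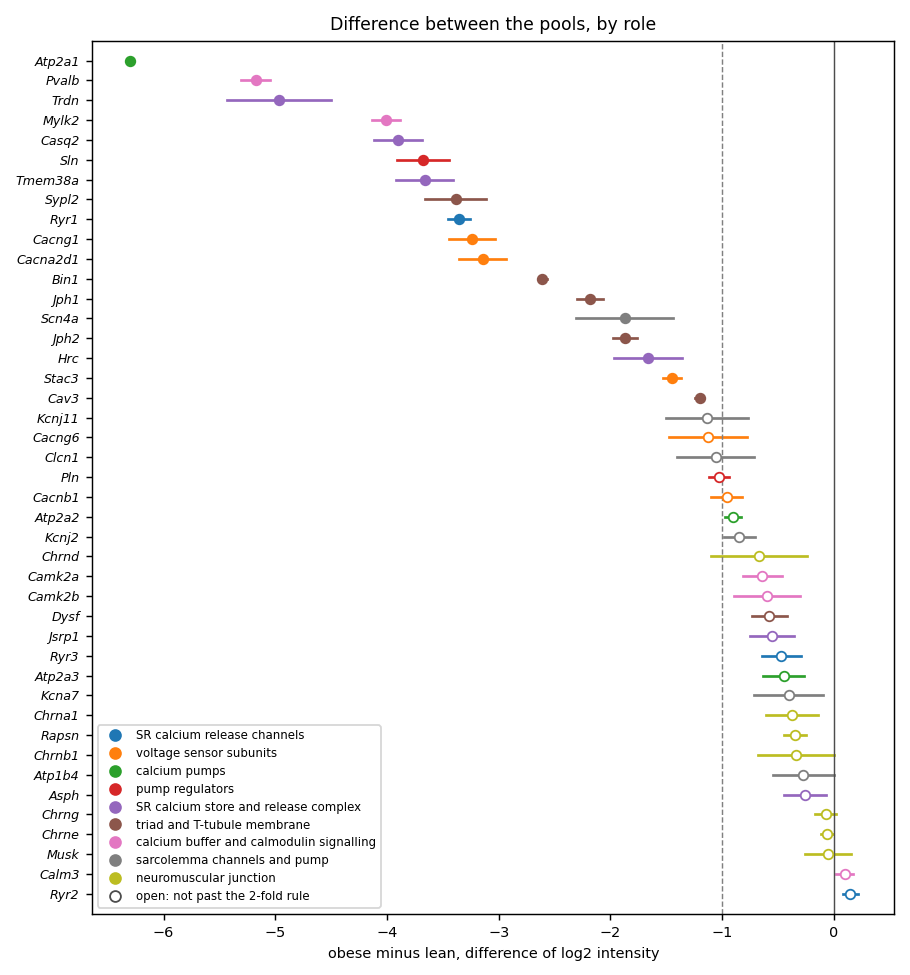
Difference between the pools (obese minus lean, log2 intensity) for each measured member, in order of size and coloured by role. Points are differences of the pool means, bars the range over the 4 array pairs, filled points pass the 2-fold rule, and the dashed line is a factor of 2. Differences run from -6.31 for Atp2a1 to 0.15 for Ryr2. Those of the 7 neuromuscular junction genes, all below the level filter in both pools, run from -0.67 to -0.06.

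Of the 6 measured genes of the SR calcium store and release complex, 4 passed the 2-fold rule. Trdn (triadin), which ties calsequestrin to the ryanodine receptor, stood at 2.48 and 3.12 on the obese arrays, against 7.62 and 7.91 on the lean arrays. Its difference of -4.97 had the widest range among the 2-fold lower members (-5.43 to -4.50), with the obese arrays 0.64 apart. Casq2, the calsequestrin of heart and slow fibres, stood at 3.39 and 3.64 on the obese arrays, against 7.51 and 7.33 on the lean arrays, a difference of -3.90. Tmem38a, a potassium channel of the SR that balances charge during calcium release, stood at 4.85 and 4.67 on the obese arrays, against 8.26 and 8.59 on the lean arrays, a difference of -3.66. In these 3 genes every obese array lay more than 3 below every lean array.

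The other measured genes of the complex were Hrc, Jsrp1 and Asph. Hrc, a histidine-rich calcium-binding protein of the SR lumen, stood at 4.86 and 5.31 on the obese arrays, against 6.66 and 6.83 on the lean arrays, a difference of -1.66 (-1.97 to -1.36). Jsrp1, which binds the voltage sensor and calsequestrin, had a difference of -0.55 (-0.75 to -0.35). Asph encodes both junctin of the SR and a hydroxylase that many tissues make, and which of them its probe set reads was not determined. It stood at 6.20 and 6.06 on the obese arrays, against 6.51 and 6.28 on the lean arrays, above the filter in both pools, with a difference of -0.26 (-0.44 to -0.07).

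Genes of the triad, where a transverse tubule meets the SR, were all lower in the obese pool. Both obese arrays lay below both lean arrays in 6 of 6, and 5 passed the 2-fold rule, beside 18.5% and 1.48% of all genes. Sypl2 (mitsugumin 29), a membrane protein of the triad, stood at 3.70 and 4.20 on the obese arrays, against 7.31 and 7.36 on the lean arrays, a difference of -3.38. It is the only member with a further probe set, which gave -2.40. Bin1, which bends membrane into transverse tubules and is made in other tissues too, stood at 5.52 and 5.54 on the obese arrays, against 8.11 and 8.17 on the lean arrays. Both pools were above the filter, and the obese pool was lower by a factor of 6.11 (5.94 to 6.28).

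The junctophilins hold the tubule and SR membranes together, and both genes passed the 2-fold rule, from obese levels under the filter. Jph1, the skeletal form, stood at 4.60 and 4.50 on the obese arrays, against 6.80 and 6.67 on the lean arrays, a difference of -2.18 (-2.30 to -2.07). Jph2, shared with the heart, stood at 5.10 and 5.25 on the obese arrays, against 7.08 and 7.01 on the lean arrays, a difference of -1.87 (-1.98 to -1.76). Cav3, the caveolin of muscle membranes, stood at 4.47 on both obese arrays, against 5.71 and 5.63 on the lean arrays. Its difference of -1.20 (-1.24 to -1.16) was the smallest past the 2-fold rule, in the 1 gene of the 4 windows above with all 3 promoter sequences. Dysf (dysferlin), which takes part in membrane repair, had a difference of -0.58 (-0.74 to -0.42) and passed neither rule.

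Of the 5 genes of calcium buffering and calmodulin signalling, 2 passed the 2-fold rule, Pvalb and Mylk2. Pvalb (parvalbumin), the soluble calcium buffer of fast fibres, stood at 3.78 and 4.02 on the obese arrays, against 9.07 and 9.08 on the lean arrays, a difference of -5.18 (-5.30 to -5.05). Mylk2, the myosin light chain kinase of skeletal muscle, stood at 4.17 and 4.13 on the obese arrays, against 8.06 and 8.26 on the lean arrays, a difference of -4.01 (-4.14 to -3.89). In both genes the obese arrays lay below the level filter and the lean arrays far above it. Calm3, a calmodulin gene active in most tissues, stood at 8.72 and 8.65 on the obese arrays, against 8.55 and 8.63 on the lean arrays, with a difference of 0.10 (0.02 to 0.17). The calmodulin-dependent kinase genes Camk2a and Camk2b, best known from brain and present in muscle, had differences of -0.64 (-0.82 to -0.46) and -0.60 (-0.90 to -0.30), from levels below the filter in both pools.

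Of the 6 channel and pump genes of the surface membrane 2 reached the level filter, Scn4a and Kcnj2, both in the lean pool alone, and 1 passed the 2-fold rule. Scn4a, the sodium channel that carries the muscle action potential, stood at 3.42 and 3.82 on the obese arrays, against 5.26 and 5.73 on the lean arrays, a difference of -1.87 (-2.31 to -1.44). Its call rests on the lean technical replicate array, since on the original lean array alone its level lay below the filter, with a difference of -1.64. Clcn1, the chloride channel that steadies the resting membrane, stood at 3.62 and 3.91 on the obese arrays, against 4.62 and 5.02 on the lean arrays, a difference of -1.06 below the filter. Kcnj11, the pore of the ATP-sensitive potassium channel, had a difference of -1.13 (-1.50 to -0.77), and Kcnj2, an inward rectifier, one of -0.85 (-0.98 to -0.71), which passed the 1.5-fold rule. Kcna7, a voltage-gated potassium channel, stood at 4.34 and 4.86 on the obese arrays, against 5.05 and 4.96 on the lean arrays, below the filter in both pools. Its difference of -0.41 (-0.71 to -0.10) became -0.15 when the original array of the obese pool was left out, and -0.66 when its technical replicate was. Atp1b4, a muscle relative of the sodium pump's beta subunit, had a difference of -0.27 (-0.55 to 0.00), and the arrays of its pools met.

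None of the 7 neuromuscular junction genes passed either rule, and all stood below the level filter in both pools, between 3.74 and 5.08 in the obese pool and between 4.24 and 5.14 in the lean pool. Differences ran from -0.67 (-1.10 to -0.24) for Chrnd, the delta subunit of the acetylcholine receptor, to -0.06 for Musk, the kinase that gathers the receptors. Chrna1, the alpha subunit, stood at 3.72 and 4.13 on the obese arrays, against 4.33 and 4.28 on the lean arrays, a difference of -0.37. The subunit of the adult receptor, Chrne, stood at 5.07 and 5.08 on the obese arrays, against 5.10 and 5.18 on the lean arrays. That of the fetal receptor, Chrng, stood at 4.17 and 4.34 on the obese arrays, against 4.34 and 4.32 on the lean arrays. The pools overlapped for Chrng, whose window above holds CAGCTG 2 times, for Musk and the beta subunit gene Chrnb1. Rapsn, the scaffold under the receptors, had a difference of -0.35 (-0.45 to -0.25). Levels this low limit what the arrays could detect, so these values do not show that the pools were alike.

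**Figure D3:**
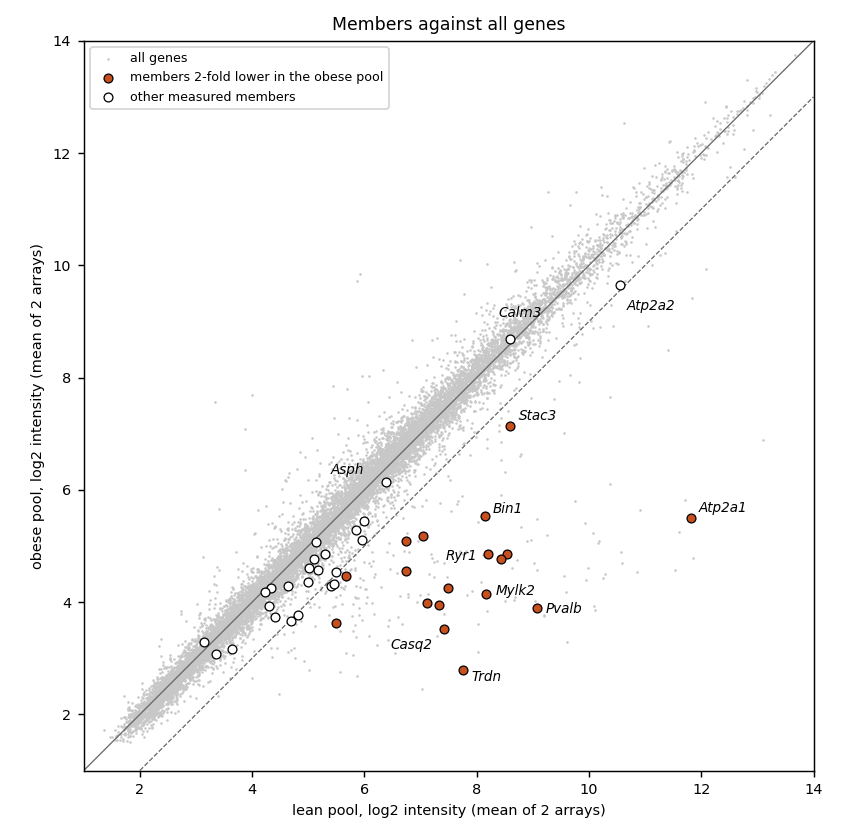
Pool levels of all 14506 genes (grey) and of the measured members, as log2 intensity with the lean pool across and the obese pool upwards. The solid line is equality and the dashed line a factor of 2 lower in the obese pool; filled points are the 18 members past the 2-fold rule. Calm3 and Asph lie near the line of equality with most genes, and Atp2a1 stands at 5.51 in the obese pool and 11.81 in the lean pool.

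Of the 18 members that passed the 2-fold rule, 15 had an obese level under the filter and 3 an obese level above it, namely Atp2a1, Bin1 and Stac3. For the 15, no level is known to lie above background in the obese pool, so their differences give a direction and no firm size or order. Atp2a1 and Bin1 stood at 5.51 and 5.53 in the obese pool, close above the filter, so the sizes of their differences are not firm either. The arrays of the obese pool agreed less well than those of the lean pool, for all genes as for the members. The standard deviation of technical replicate minus original was 0.26 in the obese and 0.20 in the lean pool for members. For all genes it was 0.27 and 0.20. The arrays of a pool lay at least 0.5 apart for 7 members on the obese side and for 0 on the lean side, against 6.51% and 2.57% of all genes. The technical replicate was the higher obese array in 30 of 43 members, while it was higher in 43.5% of all genes.

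Textbook genes of calcium handling, excitability and the neuromuscular junction that are no members were measured in 76 of 86 cases. By the 2-fold rule 4 of the 76 (5.26%) were lower in the obese pool and 0 higher, beside 1.48% and 0.572% of all genes. The median difference of the 76 was -0.10. Cavin4, a caveolar protein of muscle, and Atp1b2, a sodium pump beta subunit, missed the rule through the level filter alone, with differences of -2.22 (-2.62 to -1.81) and -1.21 (-1.31 to -1.11). Trim72, which seals torn muscle membrane, stood at 3.45 and 4.03 on the obese arrays, against 6.46 and 6.73 on the lean arrays, a difference of -2.85. Popdc3, a cyclic AMP-binding membrane protein of striated muscle, had a difference of -2.70 (-2.89 to -2.50) and Scn4b, a sodium channel beta subunit, one of -1.84 (-1.99 to -1.69). Cav1, the caveolin of endothelium and fat, stood at 5.94 and 5.68 on the obese arrays, against 6.99 and 7.22 on the lean arrays, a difference of -1.29. The release channels of liver and other tissues, Itpr1, Itpr2 and Itpr3, had differences of -0.28, -0.30 and 0.17. Calm2, a further calmodulin gene, and Nrg1, a growth factor, passed the 1.5-fold rule in the other direction, with differences of 0.72 (0.58 to 0.85) and 0.84 (0.65 to 1.03). No store-operated entry, calcium extrusion or further calcium channel gene passed the 2-fold rule, which cannot be told from the shares of all genes.

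The genes that lie next to the lower members on the chromosomes had values near those of all genes. In the RefSeq gene order of assembly GRCr8, the 18 members past the 2-fold rule had 29 measured protein-coding neighbours that are no members. By the 2-fold rule 0 of the 29 were lower and 0 higher in the obese pool, counts that cannot be told from the 1.48% and 0.572% of all genes. Their median difference was -0.03, and 28 lay within 0.5 of no difference. Cacng1 (-3.24) lies beside the sister gene Cacng4, which had a difference of -0.08 (-0.23 to 0.08). Atp2a1 lies between Rabep2, at 0.23, and Sh2b1, at -0.06. The exception was Tpx2, a mitotic spindle gene next to Mylk2, with a difference of 1.18 (0.89 to 1.46) from levels below the filter in both pools. Kcnj11, which missed the 2-fold rule, lies beside Abcc8, the gene of its channel partner, and the differences were -1.13 for Kcnj11 and 0.52 (0.32 to 0.73) for Abcc8.

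**Figure D4:**
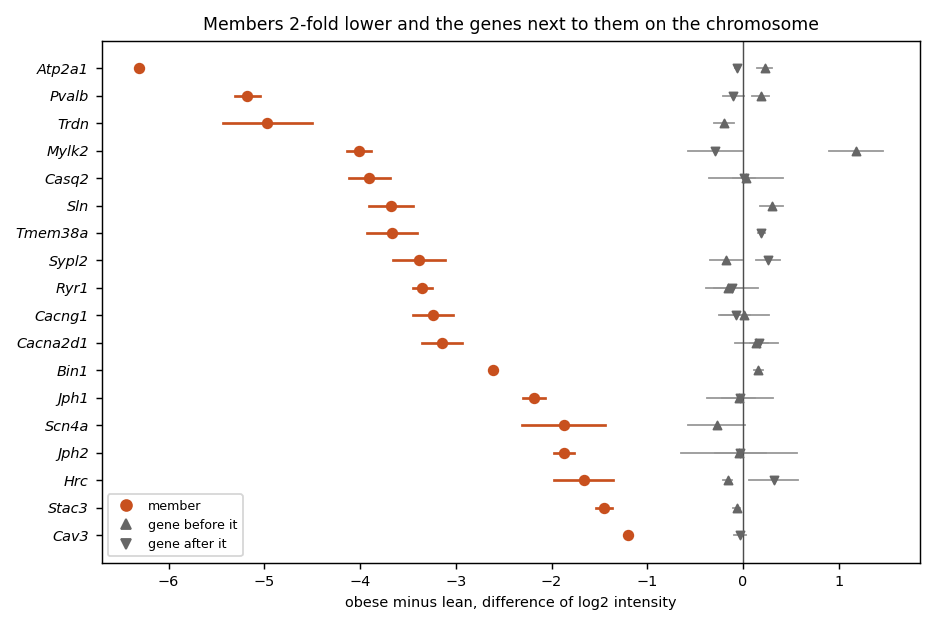
Difference between the pools (obese minus lean, log2 intensity) for the 18 members past the 2-fold rule (orange circles) and for the measured protein-coding gene before and after each on its chromosome (grey triangles). Bars are the range over the 4 array pairs. Of the 29 neighbours 28 lie within 0.5 of 0, and Tpx2 beside Mylk2 stands at 1.18.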

How the data were processed

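Liver RNA pools of obese and lean WNIN/Ob rats were hybridised to 2 arrays each. The authors deposited linear-scale intensities, between 2.31 and 14288, computed with RMA (background correction, normalisation between arrays and probe set summary), per the submitters' processing notes. The step back from log2, the software version and the genome build are not given in the sources used here. RMA can draw in very dim and very bright values, and its effect on the folds here was not tested. The log2 of each value was taken with no further normalisation.

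Of 29214 probe sets, 15310 carried 1 symbol in the platform annotation, 323 several and 13581 none, and only the first were used here. Where a gene had several, the probe set with the highest mean was taken, which left 14506 genes. With 1 pool per phenotype the animals cannot be compared as replicates, so no test was made. The number of arrays limits the precision. Detection calls and scanner output were not analysed here.

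Members and lists were chosen with earlier results of these data known. All members are reported, by role, with other pathway genes past the 2-fold rule and those singled out after their values were seen (Itpr1 to Itpr3, Cavin4, Atp1b2, Myh6, Myh11, Calm2, Nrg1, Tpx2, Abcc8, Cacng4, Rabep2, Sh2b1). The calling rules were checked on simulated data. Alternatives were an offset of 16, cyclic loess and quantile normalisation (limma 3.58.1, R 4.3.3), the mean over probe sets, single array runs, each array left out and no level filter. Other work used Python 3.11.15 with pandas 2.3.3.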

Additional observations from a re-analysis of the deposited data

How the results depend on the processing

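The count of 18 members lower by the 2-fold rule stayed between 17 and 22 under every alternative listed above, and the count of members higher stayed at 0. All 18 calls were kept with cyclic loess, with the mean over probe sets, on the technical replicate arrays alone and without the filter on low levels. The offset of 16 cost Cav3 its call, at a difference of -0.81. Scn4a lost its call, through the level filter, with quantile normalisation, without the lean technical replicate array (-1.64) and on the original arrays only. Calls were gained for Cacnb1 on the original arrays alone, without the obese technical replicate and without the lean technical replicate, and for Kcnj11 with the mean over probe sets and without the lean original array. The members' median difference was -0.64 with the offset of 16, which shrinks differences of dim genes, and -2.18 over those members at or above the level filter, a larger size that the filter itself builds in, since 15 of the 18 lower members pass it through the lean pool alone. It ran from -1.05 to -0.91 when an array was left out. Differences of the 18 members past the 2-fold rule kept their sign under each alternative, and the sign changed only for Chrng and Musk. No paired analysis was possible because each phenotype is a single RNA pool and its arrays are technical replicates.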
